A study of Rattus norvegicus with 54 samples.

Results

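The livers of newborn Wistar rats were compared between the first postnatal day (P1, 4 arrays) and the fourth postnatal day (P4, 4 arrays), 8 of the 54 arrays of a study of rat liver and hind limb skeletal muscle before and after birth. The 8 arrays were chosen by tissue and age alone. Each array carried total RNA of liver tissue from a 1-day-old or 4-day-old newborn of the same outbred stock, with no treatment and no altered gene, and no source states the sex, litter or hour of collection of the pups. The foetal livers used beside them came from pups delivered by Caesarean section on foetal day 22 (F22, 4 arrays). The adult livers came from 90-day-old rats (P90, 4 arrays), and the muscle from the same newborn ages (5 arrays each). The test took its spread from the P1, P4 and F22 livers and from livers of foetal days 16 and 20 (F16 and F20, 4 arrays each). The comparison with muscle also drew on muscle of F16, F20 and F22 (5 arrays each). The GeneChip Rat Gene 1.0 ST array reads a transcript with probes spread over its exons, and its values are given on a log2 scale, on which a difference of 1 stands for a 2-fold change of signal. P4 minus P1 was tested for 15310 probe sets that carry a single gene symbol, which stand for 14506 genes. The replicates of a group are labelled as biological replicates.

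At birth the liver of a mammal changes its fuel from glucose supplied through the placenta to the fat of milk. Fatty acids released from milk fat are oxidised in hepatocyte mitochondria and peroxisomes under the nuclear receptor PPAR alpha, glucose is made anew, and bile acids are made from cholesterol to take up fat from the gut. At the same time the liver is still a site of blood cell formation, which it later leaves to the bone marrow. The comparison of P1 with P4 follows the liver over the days after this switch.

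The P1 arrays were less alike than those of any other liver age. The median SD of a probe set was 0.135 over the P1 arrays, against 0.108 over the P4 arrays and 0.081 to 0.101 at F16, F20, F22 and P90. P1 replicate 1 stood apart. On the line from the mean of the F22 arrays, set at 0, to the mean of the P4 arrays, set at 1, it lay at 0.68, and P1 replicates 2, 3 and 4 lay at 0.883, 0.885 and 0.906. Of 464 probe sets with a P1 SD above 0.5, replicate 1 was the array farthest from the other 3 in 341, and in 264 of these it lay on the F22 side of them. The array name in its sample description ends in a number where those of the other 3 P1 arrays end in letters, a difference that no label explains. Results are therefore given with and without this array where it changes them.

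**Figure D1:**
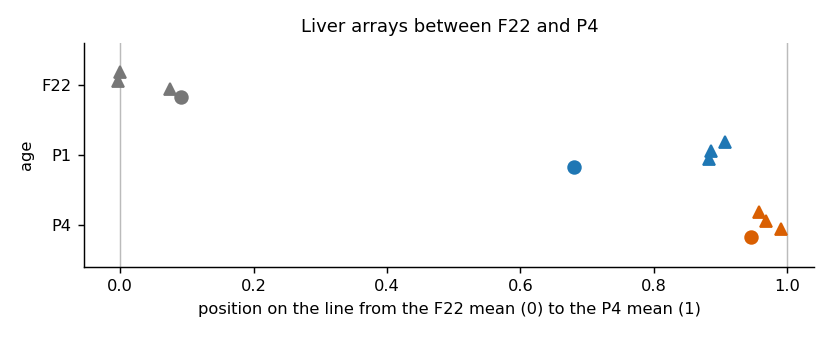
Position of each F22, P1 and P4 liver array (points; circle, replicate 1; triangles, replicates 2 to 4) on the line from the F22 mean (0) to the P4 mean (1) over 15310 probe sets, with each array left out of its own group mean. P1 replicate 1 lies at 0.68, the other P1 arrays at 0.883 to 0.906 and the P4 arrays at 0.946 to 0.991.

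The arrays carried the defining genes of liver. Albumin (*Alb*) stood at a mean log2 level of 13.83 at P1 and 13.86 at P4, transthyretin (*Ttr*) at 13.37 and 13.48 and transferrin (*Tf*) at 13.71 and 13.74. Of 4 markers of skeletal muscle, *Ckm* had means of 7.66 and 7.88 at P1 and P4, *Tnni2* of 6.49 and 6.79, *Actn3* of 6.20 and 6.28 and *Myh3* of 6.17 and 6.31, where the median of all probe sets on these arrays was 7.76 to 7.85. *Tnni1*, the troponin of slow muscle, which is not among them, stood at 10.20 on P1 replicate 1, as at F22 (10.19), at 7.44 to 7.91 on the other P1 arrays and at 6.51 to 6.71 at P4. The erythroid marker *Ahsp*, which stabilises free alpha globin, stood at 12.34 and 12.49 at P1 and P4, against 6.01 in adult liver.

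Between P1 and P4, 574 genes rose (3.96% of the genes tested) and 693 fell (4.78%), by limma's moderated test at a threshold of 0.05 after Benjamini-Hochberg adjustment. The median difference over all genes was 0.011. In terms of probe sets, 609 rose and 748 fell, and 24 of the former and 45 of the latter changed at least 2-fold. With no correction for the number of tests, the threshold of the study's own methods, 1715 probe sets rose and 1757 fell. Without P1 replicate 1, 5.54% of the genes rose and 7.54% fell. The counts of each gene list below are to be read beside these shares over all genes, those with all arrays and those without replicate 1. A higher count without that array can partly follow the higher share of all genes called. Of the 1357 probe sets called with all arrays, 1168 (86.1%) were called without it too, all in the same direction, and these make up 57.6% of the 2028 called without it. Without P4 replicate 2, 491 probe sets fell, and without P4 replicate 4, 486, and apart from these and P1 replicate 1 no single array moved either count by more than 1.5 times. All P4 arrays lay above all P1 arrays for 5.63% of the genes and below them for 5.52%. In the fit of the 8 arrays of P1 and P4 alone, 180 genes rose and 219 fell, against 574 and 693.

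The lowest difference was that of histidine decarboxylase (*Hdc*), which makes histamine. It stood at 13 on P1 replicate 1, at 9.30, 10.84 and 9.60 on P1 replicates 2 to 4 and at 7.11, 6.46, 6.63 and 6.51 on P4 replicates 1 to 4. Every P4 array lay below every P1 array, and P1 replicate 1 stood close to the F22 mean of 13.32. The fall was 16.1-fold (log2 difference −4.01 ± 0.48 SE, adjusted p = 3.48e-05), and −3.24 without that array. *Rbp2*, an intracellular binding protein of retinol, stood at 12.03, 10.30, 10.21 and 10.57 at P1 and at 7.58, 7.47, 7.39 and 7.89 at P4, a fall of 9.15-fold (−3.19 ± 0.26 SE, adjusted p = 9.21e-07). Its mean was 11.25 at F22 and 6.13 at P90, so that P4 lay between the foetal and the adult level. *Dlk1*, an imprinted gene of foetal tissues, stood between 10.64 and 11.37 at P1 and between 8.51 and 9.09 at P4 (−2.08 ± 0.13 SE, adjusted p = 3.85e-08). Its mean had been 12.25 at F22 and was 8.15 in the adult. *Hbe1*, an embryonic-type globin, stood at 10.88 on P1 replicate 1, at 8.34 to 9.27 on the other P1 arrays and at 7.23 to 7.90 on the P4 arrays (−1.71 ± 0.33 SE, adjusted p = 0.00243).

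Here and below, the 15 lowest and the 15 highest are those of called genes whose P1 and P4 arrays did not overlap. Of the 15 lowest, *Orm1*, *Rgs16*, *Clec2e*, *Dnajb3* and *Ephx2* had lower means at F22 than at P1. So had *Pdk4*, *Cyp7a1* and *Cyp8b1*, which are described further on. The acute phase plasma protein gene *Orm1* stood at 6.65 at F22, at 10.64 to 11.52 at P1, at 8.81 to 9.38 at P4 and at 12.89 at P90. It was high at P1, lower at P4 (−1.99 ± 0.21 SE, adjusted p = 8.01e-06) and highest in the adult. *Rgs16*, a regulator of G-protein signalling, stood at 6.92 at F22, 9.87 to 11.03 at P1 and 8.21 to 9.29 at P4 (−1.87 ± 0.21 SE, adjusted p = 1.48e-05). *Clec2e*, *Dnajb3*, *Ephx2*, *Snhg11* and *Tnni1* fell by 1.56 to 1.95 on the log2 scale. Of these, *Ephx2*, soluble epoxide hydrolase, divided the P4 arrays, with 8.24 and 8.19 on replicates 1 and 2 and 10.01 on both replicates 3 and 4. *Snhg11* and *Tnni1* were high on P1 replicate 1 (10.56 and 10.20), and their F22 means were 9.03 and 10.19. Without that array their differences were −1.28 and −0.96.

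**Figure D2:**
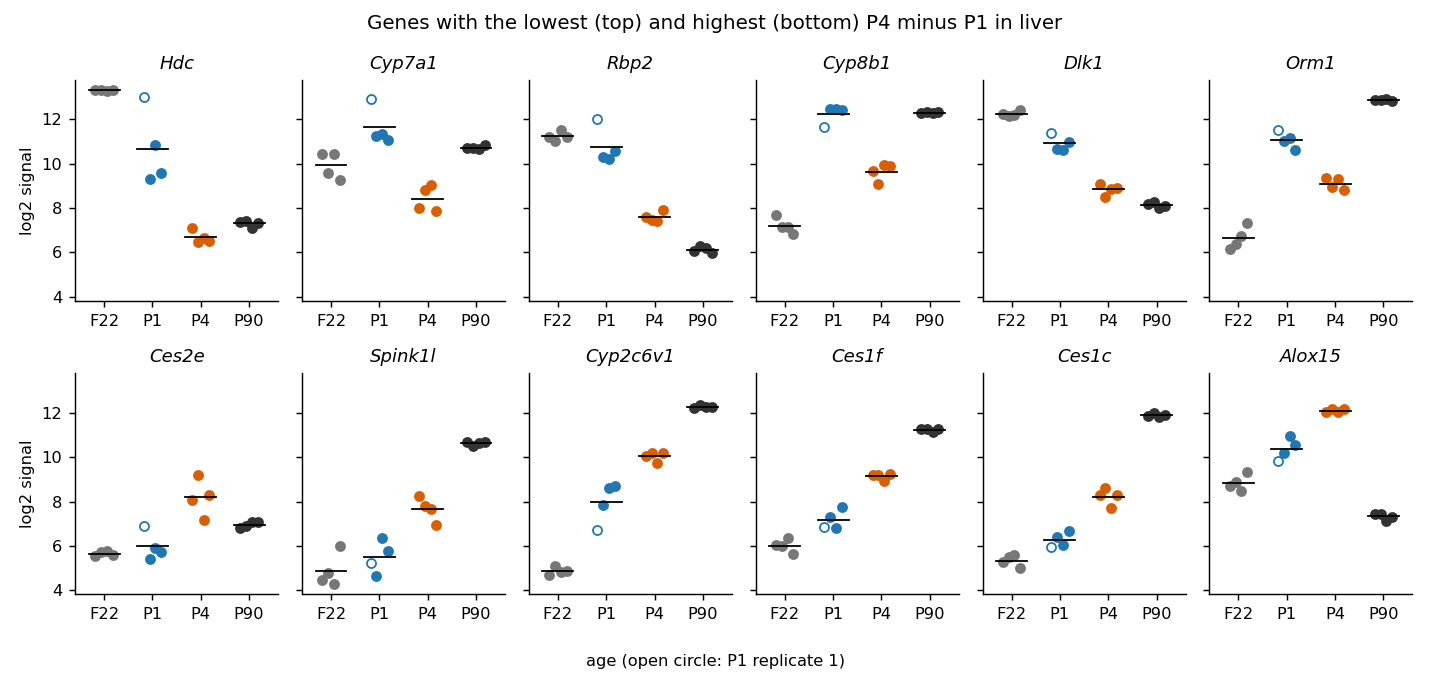
Log2 level of 6 of the lowest (top row) and 6 of the highest (bottom row) genes in liver, by age (F22, P1, P4 and P90). Each point is an array, horizontal bars are the means of the 4 arrays, and P1 replicate 1 is the open circle. *Hdc*, *Cyp7a1* and *Rbp2* are lower on every P4 array than on any P1 array, and *Ces1c*, *Ces1f* and *Alox15* higher.

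Some genes of fat oxidation fell. Of 26 measured targets of PPAR alpha, 9 fell and 0 rose, and the median difference was −0.29, where the median of all genes was 0.011. *Pdk4*, the kinase that turns off pyruvate dehydrogenase when fat is burnt, stood at 12.29, 10.87, 11.19 and 11.07 at P1 and at 9.94, 9.40, 10.20 and 9.62 at P4 (−1.57 ± 0.24 SE, adjusted p = 0.000353). *Ehhadh*, the bifunctional enzyme of peroxisomal beta-oxidation, stood at 12.19, 13.16, 13.10 and 13.05 at P1 and at 11.80, 11.52, 12.03 and 11.83 at P4 (−1.08 ± 0.17 SE, adjusted p = 0.000614). The P4 arrays of both genes lay below all P1 arrays, and for *Pdk4* P1 replicate 1 was the highest array while for *Ehhadh* it was the lowest of its age. *Angptl4*, a secreted inhibitor of lipoprotein lipase, fell by 1.01 ± 0.14 SE (adjusted p = 0.000212), and *Cyp4a8*, a fatty acid omega-hydroxylase, by 2.50 ± 0.45 SE (adjusted p = 0.00145). *Cyp4a8* stood at 6.98 on P1 replicate 1, within the P4 range of 6.32 to 7.07, and at 9.46 to 10.46 on the other P1 arrays.

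*Ppara* itself, which codes for the receptor, stood at 12.01 to 12.07 at P1 and 11.88 to 11.97 at P4 (−0.12 ± 0.07 SE, adjusted p = 0.339). *Cpt1a*, which lets long-chain fatty acids into mitochondria and limits the rate of their oxidation, stood at 12.15 to 12.73 at P1 and 12.01 to 12.47 at P4 (−0.28 ± 0.19 SE, adjusted p = 0.423). Its mean at F22 was 9.93, so that both newborn ages lay far above the foetal level. *Fgf21*, a hormone gene under PPAR alpha, stood at 6.32 on P1 replicate 1, at 7.54 to 8.64 on the other P1 arrays and at 7.14 to 7.43 at P4 (−0.29 ± 0.29 SE, adjusted p = 0.614), and without that array the difference was −0.71 (adjusted p = 0.0137). The cytosolic thioesterase *Acot1* was 6.0 on P1 replicate 1, near the F22 mean of 5.98, and 10.23 to 10.97 on the other P1 arrays, against 7.36 to 8.74 at P4. With all arrays its difference of −1.37 did not pass (adjusted p = 0.27), and without replicate 1 it was −2.55 (adjusted p = 2.92e-05). Without replicate 1, 15 of the 26 targets fell and 0 rose. With no correction for the number of tests, 11 of the 26 fell and 1 rose.

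Within mitochondria the same direction was found for 11 of 27 genes of fatty acid oxidation, and 0 rose (13 fell and 2 rose without P1 replicate 1). *Eci1*, an isomerase needed for unsaturated fatty acids, stood at 11.70, 12.51, 12.30 and 12.45 at P1 and at 10.97, 10.58, 11.06 and 11.09 at P4 (−1.31 ± 0.14 SE, adjusted p = 7.34e-06). *Cpt2*, the carnitine acyltransferase of the inner membrane, stood at 11.24 to 11.50 and at 10.67 to 10.85 (−0.60 ± 0.06 SE, adjusted p = 5.14e-06). *Cpt1b*, the muscle-type form of the outer membrane enzyme, fell by 1.41 ± 0.20 SE (adjusted p = 0.000212), *Decr1* by 0.43 ± 0.07 SE and *Acads* by 0.35 ± 0.08 SE. *Acot2*, a mitochondrial thioesterase, was −0.72 with all arrays (adjusted p = 0.0993) and −1.15 without P1 replicate 1. Of 34 peroxisomal genes, 9 fell and 2 rose. Among those that fell were *Pex11a*, which drives division of the organelle (−1.20 ± 0.19 SE), *Hacl1*, an enzyme of alpha-oxidation (−1.02 ± 0.12 SE), and *Pex6* (−0.63 ± 0.11 SE). *Hao2*, a 2-hydroxyacid oxidase, rose by 1.16 ± 0.24 SE (adjusted p = 0.00523) towards its adult mean of 11.92. Without P1 replicate 1, 14 of the 34 peroxisomal genes fell, and without P1 replicate 4 or P4 replicate 2, 5. Of 8 ketone body genes, 1 fell and 0 rose.

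Of 25 genes for making and moving bile acids, 2 fell and 0 rose, and both are among the 5 lowest differences of called genes whose P1 and P4 arrays did not overlap. *Cyp7a1*, the rate-limiting enzyme of bile acid synthesis, stood at 12.95, 11.26, 11.34 and 11.05 at P1 and at 7.98, 8.83, 9.03 and 7.88 at P4. The groups were apart by over 2 units, with P1 replicate 1 the highest array. This is a 9.32-fold fall (−3.22 ± 0.35 SE, adjusted p = 1.38e-05), to a level below the means of F22 (9.94) and P90 (10.72). *Cyp8b1*, the 12-alpha-hydroxylase that decides how much cholic acid is made, stood at 11.64, 12.47, 12.48 and 12.43 at P1 and at 9.66, 9.07, 9.97 and 9.90 at P4, a 6.1-fold fall (−2.61 ± 0.21 SE, adjusted p = 9.21e-07). Its mean was 7.19 at F22 and 12.31 at P90.

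The other bile acid genes moved less. *Cyp27a1*, of the alternative pathway, was −0.17 ± 0.10 SE (adjusted p = 0.315), and the nuclear receptor of bile acids *Nr1h4* was −0.22 ± 0.12 SE (adjusted p = 0.281). *Nr0b2*, a repressor under that receptor, stood at 9.17 to 9.83 at P1 and 9.74 to 10.01 at P4 (0.38 ± 0.13 SE, adjusted p = 0.0714), against 6.45 at F22 and 8.20 at P90. The export pump *Abcb11* (0.13 ± 0.12 SE) and the uptake carrier *Slc10a1* (0.18 ± 0.14 SE) did not pass, with P4 means within 0.2 units of the P1 means. *Hsd3b7* was −0.46 with all arrays (adjusted p = 0.146) and −0.74 without P1 replicate 1 (adjusted p = 0.000279), and 5 of the 25 genes fell in that fit.

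**Figure D3:**
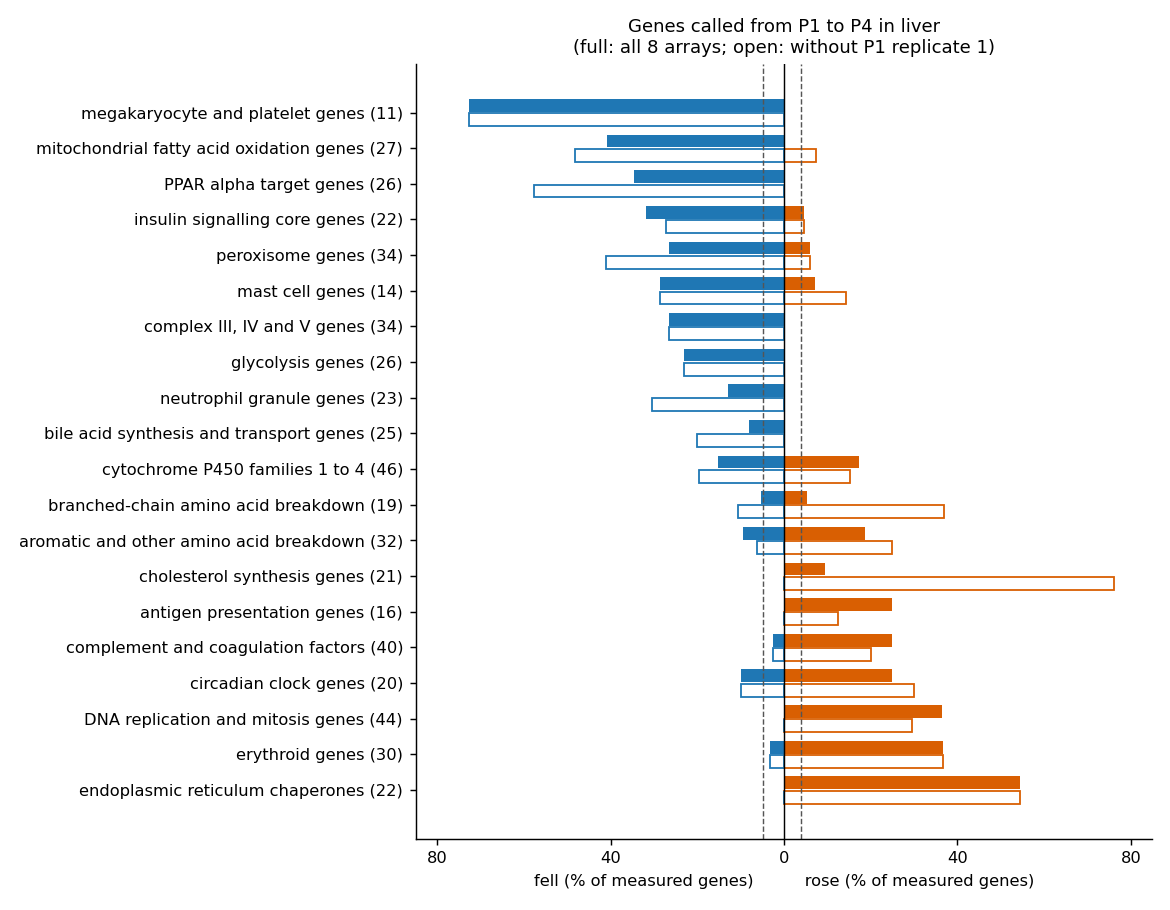
Number of measured members of 20 gene lists that rose (right, orange) or fell (left, blue) from P1 to P4 in liver, as a percentage of the list, with all 8 arrays (full bars) and without P1 replicate 1 (open bars). Dashed lines are the shares over all genes tested with all arrays, 3.96% and 4.78%. Megakaryocyte and PPAR alpha lists lie left, chaperones and erythroid genes right, and the open bar of cholesterol synthesis is 16 of 21 against 2 of 21.

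Cholesterol synthesis was the list that depended most on P1 replicate 1. The mean log2 level of its 21 measured genes was 10.32 on that array, 9.03, 9.21 and 9.30 on P1 replicates 2 to 4, and 9.69 to 9.90 on the P4 arrays. Replicate 1 thus lay above all P4 arrays and near the F22 value of 10.11, and the other P1 arrays lay below all P4 arrays. With all arrays 2 of the 21 genes rose and 0 fell, with a median difference of 0.29, and without replicate 1, 16 rose and 0 fell, with a median of 0.55. *Idi1*, isopentenyl diphosphate isomerase, was called in both fits (0.95, adjusted p = 0.044, and 1.39, adjusted p = 1.76e-05). *Sqle*, squalene epoxidase, stood at 10.53 on replicate 1, at 7.65, 7.66 and 8.02 on the other P1 arrays and at 8.98 to 9.48 at P4. Its difference was 0.73 (adjusted p = 0.299) with all arrays and 1.41 (adjusted p = 1.33e-07) without replicate 1. *Msmo1*, *Fdps*, *Cyp51* and *Lss* had the same pattern, with 0.54 to 0.78 in the first fit and 1.02 to 1.24 in the second. *Srebf2*, the transcription factor that drives the pathway, was 0.13 (adjusted p = 0.581) and 0.28 (adjusted p = 0.0438).

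Of 25 genes of fatty acid synthesis and desaturation, 17 were higher on P1 replicate 1 than on any other P1 array and 8 lower, where over all genes tested 4446 were higher and 4903 lower. With all arrays 1 of the 25 rose and 1 fell, and without replicate 1, 5 rose and 4 fell. *Scd*, which makes monounsaturated fatty acids, stood at 11.28 on P1 replicate 1, at 7.82 to 8.37 on the other P1 arrays, at 7.24 to 7.54 at P4 and at 12.27 at P90. It fell in both fits, by 1.53 (adjusted p = 0.041) with all arrays and by 0.75 (adjusted p = 0.00119) without replicate 1. *Scd2* stood at 12.36 on that array, as at F22, and at 9.33 to 9.70 on the other P1 arrays against 9.65 to 9.87 at P4. *Fasn*, fatty acid synthase, stood at 10.03 on replicate 1, 8.76 to 9.03 on the others and 9.24 to 9.53 at P4, so that its difference went from 0.18 (adjusted p = 0.596) to 0.47 (adjusted p = 0.00073) when the array was left out.

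**Figure D4:**
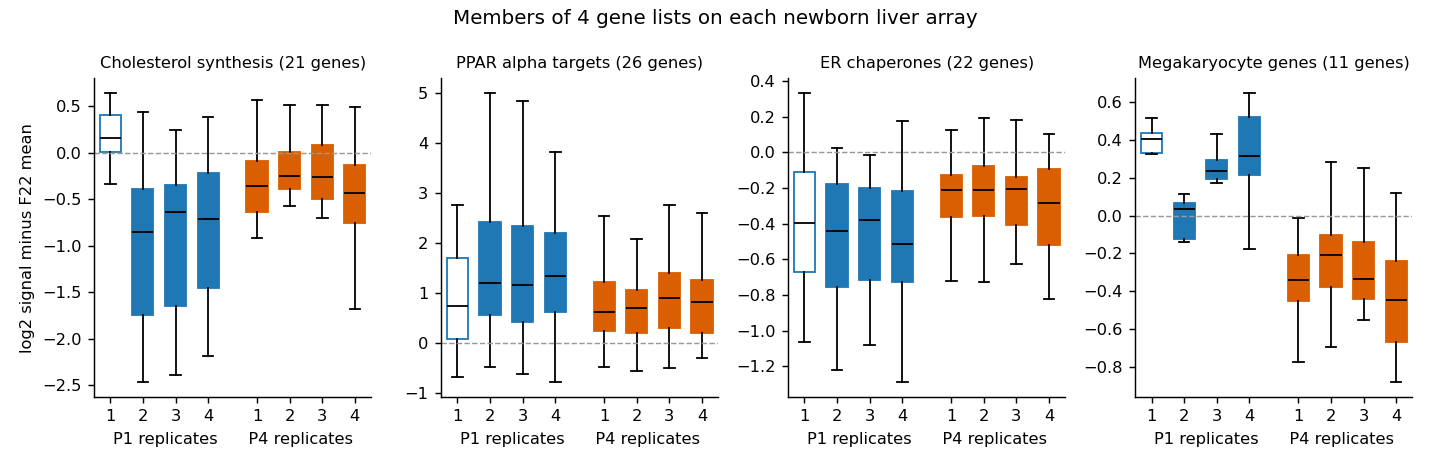
Log2 level of list members on each P1 and P4 liver array minus the F22 mean of the same gene, for cholesterol synthesis (21 genes), PPAR alpha targets (26), ER chaperones (22) and megakaryocyte genes (11). Boxes are quartiles over genes, whiskers reach 1.5 times the quartile range, and points beyond them are not drawn. P1 replicate 1 lies above every other P1 array for cholesterol synthesis and below them for PPAR alpha targets.

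Of 28 genes of apolipoproteins and lipoprotein assembly 1 rose and 3 fell, beside 3.96% of all genes that rose and 4.78% that fell. *Apoa2*, an apolipoprotein of high density lipoprotein, had a mean level of 11.05 at P1 and 10.14 at P4 (−0.91 ± 0.11 SE, adjusted p = 3.17e-05), the latter below the means of F22 (10.94) and the adult (12.42). *Apof* fell by 0.94 ± 0.24 SE. *Angptl8*, a partner of the angiopoietin-like inhibitors of lipoprotein lipase, rose by 0.79 ± 0.24 SE (adjusted p = 0.041, and 0.095 without P1 replicate 1), where *Angptl4* of the same family fell.

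The liver is also the organ that supplies glucose to the newborn between feeds. Of 22 genes of gluconeogenesis and glucose release 1 rose and 3 fell (0 and 5 without P1 replicate 1), and of 26 glycolysis genes 0 rose and 6 fell. *Pck1*, the rate-limiting enzyme of gluconeogenesis, stood at 12.60 to 12.83 at P1 and 12.27 to 12.96 at P4, against 7.51 at F22 (P4 minus P1 −0.11 ± 0.26 SE, adjusted p = 0.857). *Fbp1* was 0.04 ± 0.10 SE. *G6pc1*, which releases free glucose, stood at 12.83 to 12.97 at P1 and at 12.02, 11.48, 12.67 and 11.57 at P4. All P4 arrays lay below the P1 arrays, but the difference of −0.98 ± 0.41 SE did not pass (adjusted p = 0.155). Its SE draws on all ages of the fit, and the SD was 0.06 at P1, 0.54 at P4 and 1.35 at F22. Pyruvate carboxylase (*Pc*) stood at 12.26 to 12.54 and at 11.77 to 11.92 (−0.57 ± 0.08 SE, adjusted p = 0.000235). Of 17 glycogen genes 1 rose and 3 fell. Glycogenin (*Gyg1*), which primes the glycogen chain, fell by 0.58 ± 0.12 SE (adjusted p = 0.00504), and laforin (*Epm2a*), a glycogen phosphatase, rose by 0.76 ± 0.08 SE (adjusted p = 1.38e-05). In glycolysis *Pfkfb3* fell by 0.79 ± 0.18 SE (by 0.50 without P1 replicate 1), the glucose carrier *Slc2a3* by 0.65 ± 0.14 SE and the liver pyruvate kinase *Pklr* by 0.51 ± 0.11 SE. *Pdhb*, a subunit of pyruvate dehydrogenase, fell by 0.62 ± 0.07 SE (adjusted p = 3.17e-05), and *Pdk2*, a kinase of the same complex as *Pdk4*, rose by 0.60 ± 0.14 SE (adjusted p = 0.0128).

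Of the 15 highest genes, 4 code for carboxylesterases, which hydrolyse esters of drugs and lipids. *Ces1f* stood at 6.85, 7.29, 6.79 and 7.75 at P1 and at 9.18, 9.21, 8.92 and 9.23 at P4, a 3.91-fold rise (1.97 ± 0.17 SE, adjusted p = 1.56e-06). *Ces1c* rose by 1.95 ± 0.20 SE and *Ces1e* by 1.58 ± 0.18 SE, and the adult means of these 3 genes lay higher still, at 11.24, 11.90 and 11.50. *Ces2e* had the highest difference of all (2.21 ± 0.30 SE, adjusted p = 0.000165), but it stood at 7.17 to 9.21 at P4 and at only 6.95 in the adult. Members of these families are alike in sequence, and how far their probe sets share signal was not tested.

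*Alox15*, a lipoxygenase that acts on polyunsaturated fatty acids and is found in macrophages and blood cells, also had a P4 level above both the foetal and the adult mean. It stood at 9.81, 10.17, 10.96 and 10.54 at P1 and at 12.04, 12.17, 12.05 and 12.17 at P4 (1.74 ± 0.19 SE, adjusted p = 1.37e-05), with means of 8.85 at F22 and 7.34 at P90. The P4 arrays were close together and all above the P1 arrays.

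Of 46 cytochrome P450 genes and their partners, 8 rose and 7 fell. *Cyp2c6v1* stood at 6.74, 7.85, 8.60 and 8.68 at P1 and at 10.05, 10.20, 9.74 and 10.19 at P4 (2.08 ± 0.27 SE, adjusted p = 8.79e-05). *Cyp2e1*, which oxidises ethanol and acetone, stood at 9.49 on P1 replicate 1, at 11.90 to 12.59 on the other P1 arrays and at 13 to 13.14 at P4, near the adult mean of 13.12. Its difference was 1.49 (adjusted p = 0.0386) with all arrays and 0.79 (adjusted p = 0.0192) without replicate 1. *Cyp1a1*, of the dioxin-responsive family, rose by 1.19 ± 0.33 SE (adjusted p = 0.03), with 5.26 on P1 replicate 1 and 7.04 to 7.83 on the other P1 arrays, and by 0.67 without replicate 1, and *Cyp2a3* fell by 1.02 ± 0.30 SE (adjusted p = 0.0389). The count of P450 genes that rose was 4 without P4 replicate 1 or 2 and 3 without P4 replicate 4, and in the last fit 4 fell. In the fit of the 8 arrays of P1 and P4, 2 rose and 1 fell. Of 31 conjugating enzymes 3 rose and 2 fell, and without P1 replicate 1, 5 rose and 5 fell. Over all genes 3.96% rose and 4.78% fell with all arrays, and 5.54% and 7.54% without replicate 1. *Ugt2b37*, a glucuronosyltransferase, stood at 5.60 on P1 replicate 1, at 8.20 to 8.80 on the other P1 arrays and at 5.35 to 5.84 at P4 (−2.12 ± 0.53 SE, adjusted p = 0.0161). It stood high on P1 replicates 2 to 4 and near its F22 mean of 5.23 on P1 replicate 1 and at P4, while the adult mean was 11.09.

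*Cyp2e1* also counts among 20 genes that mark the hepatocytes around the central vein in the adult lobule, where Wnt signalling is high. Of these 4 rose and 0 fell, and 2 rose when any single P4 array was left out. The others were *Lect2* (0.76 ± 0.16 SE, adjusted p = 0.00447), *Cyp1a2* (0.76 ± 0.23 SE, adjusted p = 0.0434), with a P4 mean of 7.57 against 11.58 in the adult and a difference of 0.40 without P1 replicate 1, and the amino acid carrier *Slc1a4* (0.60 ± 0.15 SE, adjusted p = 0.015). *Axin2*, a direct target of Wnt signalling, was 0.49 ± 0.18 SE (adjusted p = 0.104). Without P1 replicate 1, 5 of the 20 genes rose and 1 fell. The median difference of the 20 was 0.094 with all arrays and −0.031 without replicate 1. Their mean level was 8.40 on that array, 8.89 to 8.98 on the other P1 arrays and 8.93 to 9.07 on the P4 arrays.

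Enzymes of amino acid breakdown moved in both directions. Of 32 genes for aromatic and other amino acids 6 rose and 3 fell (3 rose without P4 replicate 2). Proline dehydrogenase (*Prodh*) stood at 7.71 to 8.56 at P1 and 8.71 to 9.96 at P4 (1.05 ± 0.21 SE, adjusted p = 0.00295), and *Kmo*, of the kynurenine pathway, rose by 0.81 ± 0.09 SE (adjusted p = 2.01e-05). *Tdo2*, which opens the tryptophan ring, rose by 0.76 ± 0.23 SE to a mean still far below the adult 12.45. *Ftcd*, of histidine breakdown, fell by 0.98 ± 0.12 SE (adjusted p = 3.17e-05). *Tat*, tyrosine aminotransferase, ranged from 10.26 to 12.29 within P1 and did not pass (0.89 ± 0.53 SE, adjusted p = 0.345). In the breakdown of branched-chain amino acids, *Ppm1k*, the phosphatase that turns on the branched-chain ketoacid dehydrogenase, stood at 10.12, 9.99, 10.76 and 9.08 at P1 and at 11.32, 11.21, 11.75 and 11.51 at P4 (1.46 ± 0.23 SE, adjusted p = 0.000586). *Bckdha*, a subunit of that dehydrogenase, fell by 0.56 ± 0.12 SE (adjusted p = 0.0048). With all arrays 1 of these 19 genes rose and 1 fell, and without P1 replicate 1, 7 rose and 2 fell.

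Of 40 complement and coagulation genes made by hepatocytes for the plasma, 10 rose and 1 fell. *C6*, of the membrane attack complex, stood at 8.90 to 9.51 at P1 and at 10.37 to 10.90 at P4 (1.60 ± 0.31 SE, adjusted p = 0.00245). Its F22 mean had been 10.76, so that P1 lay below both neighbouring ages. *C9* rose by 0.86 ± 0.27 SE (adjusted p = 0.0489; 0.53 without P1 replicate 1, adjusted p = 0.105), *C4bpa* by 0.53 ± 0.12 SE and *C1s* by 0.53 ± 0.15 SE. Without P4 replicate 2 or P4 replicate 3, 6 of the 40 genes rose. The exception was *F13a1*, a coagulation factor gene that macrophages and megakaryocytes express (−0.79 ± 0.11 SE, adjusted p = 0.000221). Other secreted products among the 15 highest were *Rarres2*, chemerin (1.27 ± 0.14 SE), *Enpp2*, autotaxin (1.21 ± 0.10 SE), *Prg4*, lubricin (1.56 ± 0.18 SE), and *Spink1l*, a protease inhibitor of the Kazal type (2.16 ± 0.34 SE). *Akr1b7*, an aldo-keto reductase, and *Ttc36* rose by 1.26 and 1.19.

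Of 27 hepatocyte genes 2 rose and 2 fell, and of 16 oncofoetal genes 1 rose and 2 fell, beside 3.96% of all genes that rose and 4.78% that fell. Alpha-fetoprotein (*Afp*) stood at 13.48 to 13.59 at P1 and 13.53 to 13.61 at P4, and *Igf2* and *H19* differed by −0.09 and 0.01, while all 3 were at 6.84 to 7.77 in the adult. *Gpc3*, a surface proteoglycan of foetal liver, fell beside *Dlk1*, from 11.48 to 11.81 at P1 to 9.95 to 10.94 at P4 (−1.26 ± 0.14 SE, adjusted p = 1.85e-05). Of 27 genes of the growth hormone and IGF axis 4 rose and 1 fell. The growth hormone receptor *Ghr* rose from 10.51 to 10.66 at P1 to 10.86 to 11.09 at P4 (0.41 ± 0.06 SE, adjusted p = 0.000322), and the prolactin receptor *Prlr* rose by 1.05 ± 0.21 SE (adjusted p = 0.00315). *Igf1* was 0.45 ± 0.18 SE (adjusted p = 0.134). Of 22 insulin signalling genes 1 rose and 7 fell. Among the latter were *Irs1*, the docking protein of the receptor (−0.39 ± 0.10 SE), *Foxo1*, the transcription factor that insulin shuts out of the nucleus (−0.40 ± 0.09 SE), and the inhibitor *Grb10* (−0.52 ± 0.06 SE, adjusted p = 3.88e-05). The count of insulin signalling genes that fell was 2 to 4 without any one of P1 replicates 2 and 4 and P4 replicates 2, 3 and 4. In the fit of the 8 arrays of P1 and P4 it was 2. The receptor *Insr* was −0.21 ± 0.07 SE (adjusted p = 0.0572).

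Blood cell genes moved by lineage. Fewer cells of a type and less RNA in each of them cannot be told apart in these whole-tissue samples. Of 11 megakaryocyte and platelet genes, 8 fell and 0 rose, in the fits with and without P1 replicate 1 alike. *Pf4*, platelet factor 4, stood at 10.18, 9.83, 9.93 and 10.28 at P1 and at 9.34, 9.27, 9.38 and 8.98 at P4 (−0.81 ± 0.10 SE, adjusted p = 5.56e-05). *Gp5* and *Gp1ba*, of the von Willebrand factor receptor, fell by 0.74 ± 0.12 SE and 0.64 ± 0.11 SE. *Ppbp*, another platelet chemokine, differed by 0.05 ± 0.25 SE. The mean level of the 11 genes was 9.14 to 9.64 on the P1 arrays, 8.82 to 9.05 on the P4 arrays and 9.27 at F22.

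Of 30 erythroid genes 11 rose and 1 fell, and of 8 haem synthesis enzymes 3 rose and 0 fell. The erythroid transcription factor *Klf1* stood at 9.72 to 9.98 at P1 and 10.06 to 10.54 at P4 (0.36 ± 0.10 SE, adjusted p = 0.0248). The ammonia channel *Rhag* rose by 0.64 ± 0.11 SE, the transferrin receptor *Tfrc* by 0.49 ± 0.11 SE and *Urod*, of haem synthesis, by 0.40 ± 0.07 SE. *Gata1* (0.17 ± 0.11 SE), *Alas2*, the first enzyme of erythroid haem synthesis (0.04 ± 0.10 SE), and *Epor* (0.05 ± 0.09 SE) did not pass. The mean level of the 30 genes was 10.23 to 10.52 at P1 and 10.43 to 10.64 at P4, against 11.13 at F22 and 7.69 at P90, so that the newborn ages lay close together. The member that fell was *Hbe1*. Without P1 replicate 2 or P4 replicate 4 the count of erythroid genes that rose was 6, and without P4 replicate 2 it was 7. In the fit of the 8 arrays of P1 and P4 it was 3.

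Of 44 genes of DNA replication and mitosis 16 rose and 0 fell, with a median of 0.21. *Prim1*, a primase subunit, stood at 9.73 to 10.29 at P1 and 10.43 to 10.95 at P4 (0.61 ± 0.13 SE, adjusted p = 0.00614). *Rrm2*, of nucleotide reduction, rose by 0.46 ± 0.10 SE, *Ccnb2*, cyclin B2, by 0.37 ± 0.06 SE and *Cdk1* by 0.20 ± 0.06 SE (adjusted p = 0.0491). The mean level of the list was 8.99 to 9.12 at P1, 9.19 to 9.39 at P4, 9.99 at F22 and 6.85 in the adult. P1 thus lay lowest of F22, P1 and P4 for this list. Without P4 replicate 4, 6 of the 44 genes rose, and with no correction for the number of tests, 32 rose and 0 fell. In the fit of the 8 arrays of P1 and P4, 2 rose and 0 fell. As given above, 11 of 30 erythroid genes rose too, and their part in the rise of the proliferation genes was not tested.

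Of 23 neutrophil granule genes 3 fell and 0 rose, without P1 replicate 1, 7 fell, and without P4 replicate 3, 1 fell. The gelatinase *Mmp9* stood at 8.98 to 9.17 at P1 and at 8.05 to 8.46 at P4 (−0.82 ± 0.10 SE, adjusted p = 4.4e-05), *Prtn3*, proteinase 3, fell by 0.72 ± 0.21 SE, and myeloperoxidase (*Mpo*) was −0.50 ± 0.16 SE (adjusted p = 0.0544). Of 14 mast cell genes 4 fell and 1 rose. *Hdc* was among the former, with *Kit*, the stem cell factor receptor (−0.57 ± 0.11 SE), and *Ms4a2*, a chain of the IgE receptor (−0.56 ± 0.11 SE), while the mast cell carboxypeptidase *Cpa3* rose by 1.04 ± 0.29 SE (adjusted p = 0.0281). *Cpa3* stood at 4.77 to 5.78 at P1 and at 5.54 to 7.07 at P4, ranges that overlap and lie below the median of all probe sets. At F22 *Hdc* had a mean of 13.32, *Ms4a2* of 7.92 and *Cpa3* of 6.25, and which cells carried *Hdc* was not tested. Of 12 B-cell precursor genes 2 fell, *Igll1* (−0.49, adjusted p = 0.00382) and *Rag1* (−0.37, adjusted p = 0.0306), and 0 rose.

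Of 16 antigen presentation genes 4 rose and 0 fell, with 2 that rose when P1 replicate 1, P1 replicate 4 or P4 replicate 3 was left out. The 4 were higher on every P4 array than on any P1 array, and highest on P4 replicate 3. *RT1-Da*, a class II chain, stood at 6.91 to 7.19 at P1 and at 7.82, 7.63, 8.95 and 7.80 at P4 (0.99 ± 0.21 SE, adjusted p = 0.00614). *RT1-Ba* rose by 0.81 ± 0.15 SE and the invariant chain *Cd74* by 0.85 ± 0.24 SE (adjusted p = 0.0336, and 0.0804 without P1 replicate 1). Of 23 Kupffer cell and macrophage genes 3 rose and 1 fell (1 rose without P4 replicate 3). *Adgre1*, an adhesion receptor of macrophages, rose by 0.58 ± 0.11 SE and the receptor *Csf1r* by 0.43 ± 0.11 SE. *Clec4f*, the marker of Kupffer cells, was 0.20 ± 0.14 SE (adjusted p = 0.443), and it was highest on P4 replicate 3 as well (10.35, against 9.52 to 9.78 on the other P4 arrays).

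Of 19 T and NK cell genes 4 rose and 1 fell. The chemokine *Ccl5* had means of 7.67 at P1 and 8.47 at P4 (0.80 ± 0.10 SE, adjusted p = 6.36e-05), with an adult mean of 8.48. *Cd4*, which rat macrophages carry as well as T cells, rose by 0.51 ± 0.12 SE. Of 27 genes of stellate cells, fibroblasts and matrix 5 rose and 1 fell, and 3 rose when P1 replicate 2 or any single P4 array was left out. *Hgf*, the growth factor of hepatocytes made by stellate cells, rose by 0.62 ± 0.11 SE (adjusted p = 0.00149), *Col14a1* by 0.49 ± 0.08 SE and *Reln*, a stellate cell marker, by 0.41 ± 0.11 SE.

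Chaperones of the endoplasmic reticulum (ER) were, with all arrays, the gene list with the largest share of members that rose among those described here. They fold the secreted and membrane proteins of the cell, and many of them carry in their promoter the ER stress element, a pair of short sites 9 bases apart that the factors NF-Y and ATF6 bind. Of 22 measured genes 12 rose and 0 fell, with all arrays and without P1 replicate 1. With 1 array left out at a time 8 to 12 rose, and in the fit of the 8 arrays of P1 and P4, 4 rose. *Hspa5*, the main chaperone BiP, stood at 12.70, 12.64, 12.74 and 12.50 at P1 and at 12.95 to 13.06 at P4 (0.35 ± 0.05 SE, adjusted p = 0.000221). *Calr*, calreticulin, stood at 12.17 to 12.33 and at 12.54 to 12.62 (0.34 ± 0.05 SE, adjusted p = 0.00022). *Creld2* rose by 0.55 ± 0.13 SE (0.36 without P1 replicate 1), *Hyou1* by 0.46 ± 0.08 SE, *Manf* by 0.38 ± 0.06 SE, *Hsp90b1* by 0.29 ± 0.07 SE and *Dnajc3* by 0.29 ± 0.08 SE. *Xbp1*, a transcription factor of the same response, was 0.13 ± 0.08 SE (adjusted p = 0.394), and the lectin chaperone *Canx* 0.01 ± 0.06 SE. The mean level of the list was 10.62 to 10.68 on the P1 arrays, 10.82 to 10.88 on the P4 arrays and 11.13 at both F22 and P90. The changes are small, but the P1 and P4 arrays did not overlap in this mean, and P1 lay lowest of the 4 ages.

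RefSeq promoter windows of assembly GRCr8, 250 bases before to 50 after the start of a gene, were found for 18 of the 22 genes. The element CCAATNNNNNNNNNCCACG, on either strand, was present in 7 of these 18 windows, in 0.066% of all 33469 windows and in 0.13% of the 12519 windows of tested genes. The element had been chosen as one that many chaperone promoters carry, so that its share in them is not a test. Of the 7 genes with a match, *Hspa5*, *Hsp90b1*, *Calr*, *Creld2* and *Dnajc3* rose, and *Xbp1* and *Canx* did not pass. Of the 11 genes with a window but no match, 4 rose. A match is a description of the sequence and does not show that a factor was bound. The windows of 4 genes that rose are printed to show the element, which stands in capitals. That of *Hspa5* is chr3:38452766-38453065 on the plus strand, that of *Hsp90b1* chr7:23012244-23012543 on the minus strand, that of *Calr* chr19:40213117-40213416 on the plus strand and that of *Creld2* chr7:121789134-121789433 on the plus strand. The matches begin 43 bases before the gene start in *Hspa5*, 176 and 72 before it in *Hsp90b1*, 232 before it in *Calr* and 145 before it in *Creld2*. In *Calr* and *Creld2*, and in the second match of *Hsp90b1*, the element reads on the opposite strand of the gene.
Hspa5: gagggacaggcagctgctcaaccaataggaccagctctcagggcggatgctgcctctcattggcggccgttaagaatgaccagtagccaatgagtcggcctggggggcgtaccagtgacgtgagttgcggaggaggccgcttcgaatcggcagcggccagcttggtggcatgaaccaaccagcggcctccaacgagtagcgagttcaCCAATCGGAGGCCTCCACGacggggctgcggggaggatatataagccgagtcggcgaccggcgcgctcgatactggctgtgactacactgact
Hsp90b1: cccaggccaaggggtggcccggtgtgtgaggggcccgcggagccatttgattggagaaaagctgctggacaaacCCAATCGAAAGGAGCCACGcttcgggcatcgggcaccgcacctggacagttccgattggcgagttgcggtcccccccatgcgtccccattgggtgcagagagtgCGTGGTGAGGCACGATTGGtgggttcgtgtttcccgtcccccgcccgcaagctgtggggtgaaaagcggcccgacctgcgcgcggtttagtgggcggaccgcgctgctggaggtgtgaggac
Calr: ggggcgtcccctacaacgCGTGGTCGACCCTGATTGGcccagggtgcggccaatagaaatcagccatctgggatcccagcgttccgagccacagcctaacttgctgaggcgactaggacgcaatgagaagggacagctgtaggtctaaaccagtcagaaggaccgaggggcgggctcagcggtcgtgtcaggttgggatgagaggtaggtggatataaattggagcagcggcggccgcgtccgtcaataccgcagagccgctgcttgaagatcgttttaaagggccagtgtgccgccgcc
Creld2: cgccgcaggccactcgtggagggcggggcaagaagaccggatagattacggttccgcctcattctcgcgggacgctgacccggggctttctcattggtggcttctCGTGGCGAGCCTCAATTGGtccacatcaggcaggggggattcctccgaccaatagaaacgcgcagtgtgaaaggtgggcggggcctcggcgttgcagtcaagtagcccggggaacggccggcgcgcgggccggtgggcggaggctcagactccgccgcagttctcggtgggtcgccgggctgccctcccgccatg

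Genes of protein turnover showed smaller groups of changes. Of 30 proteasome genes 5 rose and 0 fell, and of 65 cytosolic ribosomal protein genes 0 rose and 12 fell, with medians of 0.078 and −0.048. When the arrays were centred on their medians, 8 of the latter fell and 1 rose, and without P1 replicate 2 or 4 or P4 replicate 2 or 3, 4 to 6 fell. In the fit of the 8 arrays of P1 and P4, 0 of the ribosomal protein genes rose and 0 fell. The proteasome count was 8 without P1 replicate 3 and 3 without P4 replicate 2 or 4. Of 34 genes of ribosome biogenesis 0 rose and 6 fell. *Myc*, a transcription factor that drives growth and ribosome production, stood at 8.98 as the P1 mean and 7.99 as the P4 mean (−0.99 ± 0.15 SE, adjusted p = 0.000353), with 8.93 at F22 and 6.52 in the adult. *Nob1*, an endonuclease that matures the small subunit RNA, fell by 0.62 ± 0.09 SE and *Fbl*, fibrillarin, by 0.29 ± 0.07 SE.

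Of 20 circadian clock genes 5 rose and 2 fell. The period genes *Per3* and *Per2* stood at 8.49 to 9.62 and 7.59 to 8.06 at P1 and at 9.83 to 10.02 and 8.40 to 8.57 at P4 (0.94 ± 0.15 SE and 0.60 ± 0.09 SE, both with an adjusted p of 0.000437). The transcription factors *Dbp* and *Tef*, which act on the output of the clock, rose by 0.75 ± 0.20 SE (0.45 without P1 replicate 1) and 0.56 ± 0.09 SE. *Bmal1*, of the activating arm, fell by 0.65 ± 0.19 SE (adjusted p = 0.0402), and its difference was −0.42 without P1 replicate 1 (adjusted p = 0.088), and *Clock*, its partner, was 0.20 ± 0.08 SE (adjusted p = 0.16). *Nr1d1*, a repressor of *Bmal1*, was 0.27 ± 0.11 SE (adjusted p = 0.151). The rats were kept on a light and dark cycle, and age and hour of collection cannot be told apart here.

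The study set out to follow the respiratory chain and coenzyme Q. Of 34 genes of complexes III, IV and V 0 rose and 9 fell, beside 4.78% of all genes that fell, and the median difference was −0.15. As many fell without P1 replicate 1, and 3 in the fit of the 8 arrays of P1 and P4. P1 replicate 1 was above the other P1 arrays in 27 of the 34. Among those that fell, *Atp5po*, a subunit of the ATP synthase, had means of 9.96 at P1 and 9.50 at P4 (−0.47 ± 0.07 SE, adjusted p = 0.000437), and *Cox7a2l*, which joins complexes III and IV, of 11.23 and 10.95 (−0.28 ± 0.05 SE, adjusted p = 0.00146). Of 33 genes of complex I 0 rose and 2 fell (1 without P1 replicate 1), and of 14 citric acid cycle enzymes 0 rose and 0 fell. With no correction for the number of tests, 0 rose and 8 fell in complex I, 1 rose and 19 fell in complexes III, IV and V, and 0 rose and 4 fell in the citric acid cycle. Of 65 mitochondrial ribosomal proteins 5 rose and 2 fell, and 11 rose without P1 replicate 1 and 3 without P4 replicate 4. Of 36 genes of mitochondrial import, chaperones and proteases 1 rose (3 without P1 replicate 1) and 8 fell, among them the proteases *Clpx* (−0.41 ± 0.09 SE) and *Afg3l2* (−0.33 ± 0.06 SE) and the chaperone *Hspa9* (−0.26 ± 0.07 SE), and 5 fell when P1 replicate 1, P1 replicate 3 or P4 replicate 4 was left out. In the fit of the 8 arrays of P1 and P4, 0 of these 36 genes rose and 1 fell. *Ndufa9*, a subunit of complex I, stood at 11.12 to 11.50 at P1 and 11.24 to 11.39 at P4 (0.07 ± 0.07 SE, adjusted p = 0.601). Of 12 genes of coenzyme Q synthesis 0 rose and 1 fell (2 and 3 without P1 replicate 1). *Coq8a*, a kinase-like protein of the pathway, stood at 9.25 to 9.55 at P1 and 9.48 to 9.90 at P4 (0.26 ± 0.11 SE, adjusted p = 0.15), with a mean of 8.46 at F22 and 11.29 in the adult. The differences of *Coq2*, *Coq3*, *Coq4*, *Coq5*, *Coq6*, *Coq7* and *Coq9* lay between −0.16 and 0.23, with SE of 0.06 to 0.09. The member that fell was *Pdss2*, of the prenyl chain synthase (−0.19 ± 0.06 SE, adjusted p = 0.043). In no fit without one of P1 replicates 2 to 4 or P4 replicates 2 to 4 did it pass. *Coq10b*, which binds coenzyme Q, stood at 10.01 on P1 replicate 1, 7.64 to 7.98 on the other P1 arrays and 8.29 to 9.57 at P4, so that its difference was 0.42 (adjusted p = 0.547) with all arrays and 0.98 (adjusted p = 0.00426) without replicate 1. *Pum2*, an RNA-binding protein, was 0.15 ± 0.06 SE (adjusted p = 0.118).

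The change from P1 to P4 was set against that in hind limb muscle for the 5 highest and the 5 lowest genes. These were taken among called genes whose P1 and P4 liver arrays did not overlap. Levels were not compared between the tissues, since no source states whether the arrays of both were normalised together and the medians of the arrays were 7.64 to 7.85 in liver and 8.65 to 8.84 in muscle, and only the difference within a tissue was used. Of all 14506 genes, 23.4% had a change from P1 to P4 that differed between the tissues with an adjusted p of at most 0.05. All 10 genes were among them, but they had been chosen for the size of their change in liver, which enters this comparison. Their count can therefore not be read against that share. *Cyp8b1* fell by 2.61 in liver and was 0.06 in muscle (liver minus muscle −2.66 ± 0.22 SE, adjusted p = 4.52e-12). *Cyp7a1* was 0.10 in muscle (−3.32 ± 0.35 SE, adjusted p = 2.16e-09), *Dlk1* 0.04 (−2.12 ± 0.16 SE, adjusted p = 8.21e-13) and *Hdc* −0.22 (−3.79 ± 0.56 SE, adjusted p = 2.66e-06). *Rbp2* was −0.82 ± 0.31 SE in muscle, in the same direction as in liver but smaller (−2.38 ± 0.44 SE, adjusted p = 0.0001). Of the highest genes, *Ces2e*, *Cyp2c6v1*, *Ces1f* and *Ces1c* differed by −0.10 to 0.09 in muscle, and *Spink1l* rose by 0.41 there (liver minus muscle 1.75 ± 0.34 SE, adjusted p = 0.000201).

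**Figure D5:**
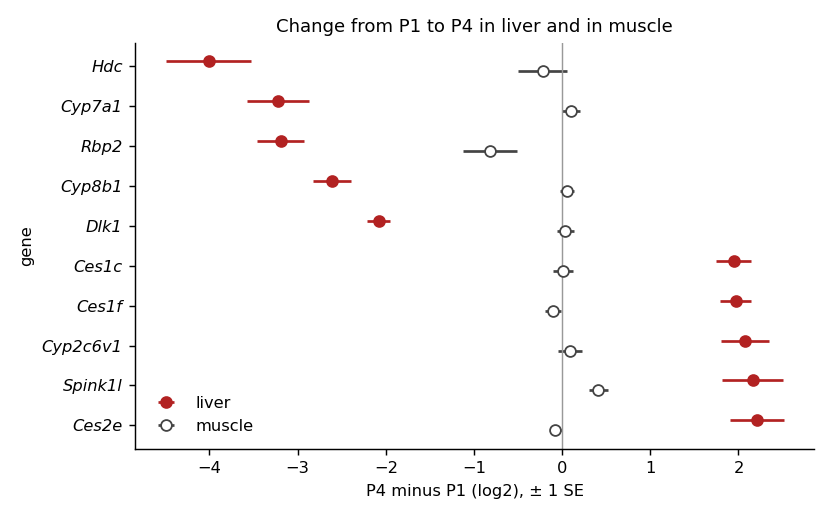
Difference P4 minus P1 on the log2 scale in liver (filled circles, 4 arrays an age) and in hind limb muscle (open circles, 5 arrays an age) for the 5 lowest and 5 highest genes in liver. These are of called genes whose P1 and P4 liver arrays did not overlap. Bars are 1 SE from the limma fit of each tissue. In muscle the values lie between −0.82 (*Rbp2*) and 0.41 (*Spink1l*), and in liver between −4.01 and 2.21.

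The 10 genes that varied most among the P1 arrays, of those above the median level, were *Cldn2*, *Inhbe*, *Hdc*, *Mfap4*, *Scd*, *Cyp2e1*, *Scd2*, *Sqle*, *Insig1* and *Tnni1*. In all but *Mfap4*, replicate 1 was the array farthest from the others. *Cldn2*, a claudin of hepatocyte junctions, stood at 7.27 on that array, near the F22 mean of 6.88, and at 11.14, 11.43 and 11.14 on the other P1 arrays against 10.36 to 10.56 at P4. *Inhbe*, the liver inhibin subunit, stood at 7.41 on it and at 10.62 to 11.59 on the others. With all arrays their differences were 0.24 and −0.13, and without replicate 1 they were −0.76 and −1.06 (adjusted p = 0.00503 and 0.00514). *Mfap4*, of the matrix, was instead high on P1 replicate 2, at 11.68 against 8.18 to 9.15 on the other P1 arrays.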

How the data were processed

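Total RNA of 24 liver and 30 hind limb muscle samples of rats was measured on GeneChip Rat Gene 1.0 ST arrays, 1 sample an array. The deposited values are log2 signals per probe set, which the authors obtained with the robust multichip average in Affymetrix Expression Console (version not given in the sources used here). Whether both tissues were normalised together is not stated. Of 29214 probe sets in the table, 15310 with 1 gene symbol in the platform annotation were tested, 323 with several and 13581 with none were left out, and 15279 of the symbols matched a current gene record. For each of 14506 genes the brightest probe set by its mean on the 20 liver arrays of F16, F20, F22, P1 and P4 was used (527 genes have several).

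P4 minus P1 was tested with limma 3.58.1 in R 4.3.3 on these 20 liver arrays, with age as the only factor, and Benjamini-Hochberg adjustment over the 15310 probe sets at 0.05. Nearly identical gene copies may share signal. The liver and muscle changes were compared in 1 fit of the 45 arrays of both time series. The P90 arrays gave levels only, apart from the alternative fit of all liver arrays. The code was tested on simulated data. Alternatives were the P1 and P4 arrays alone, all liver arrays, bright probe sets, array weights, a trended and robust prior, renormalisation, centring, averaged probe sets, the replicate number as a block, an unadjusted p, and each array left out.

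Named genes were the 15 highest and 15 lowest differences among called genes without overlap, up to 6 members of each list with the largest difference, members that define a list, the 10 genes most variable at P1 above the median level, cell type markers, and genes that the study names. Gene lists and members were chosen with earlier results of these data known. Some defining enzymes are not analysed here. The number of arrays limits the precision, and since litters are not given, p-values measure only the spread between these samples. That spread is pooled over all ages of a fit, while the P1 arrays were the least alike. For genes that varied most at P1, the SE and p-value can thus understate the spread there. *Acot1*, for example, had an SE of 0.72 with an SD of 2.37 at P1 and 0.63 at P4. Promoter sequences are from RefSeq (GRCr8).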

Additional observations from a re-analysis of the deposited data

Results flagged for a closer look

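Levels of single arrays that stood far from the other 3 of their age were looked for in 394 pairs of a named gene and an age, and 38 were found. Chance alone would give about 1 in 20 in genes not chosen by their spread, whereas 10 of the named genes were chosen for their spread at P1, *Cldn2*, *Scd*, *Scd2*, *Sqle* and *Tnni1* below among them. Of the 22 at P1, replicate 1 was the array apart in 19. It stood below the other P1 arrays for *Acot1* (6.0), *Acot2* (10.10), *Cldn2* (7.27), *Cpt1a* (12.15), *Cyp8b1* (11.64), *Ehhadh* (12.19), *Fbp1* (12.47), *Lect2* (9.56) and *Serpina3m* (5.37). It stood above them for *Alas2* (12.45), *Bckdha* (10.07), *Coq10b* (10.01), *Cyp7a1* (12.95), *Lss* (10.17), *Pfkfb3* (8.62), *Scd* (11.28), *Scd2* (12.36), *Sqle* (10.53) and *Tnni1* (10.20). Among them are genes of fat oxidation that were low on it and genes of cholesterol and fatty acid synthesis that were high on it. The other 3 at P1 were *Kmo*, low on replicate 2 (10.16), *Pck1*, high on replicate 3 (12.83), and *Clock*, low on replicate 4 (8.85).

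At P4 the arrays apart were spread more evenly. Replicate 1 was high for the muscle genes *Ckm* (8.21) and *Myh3* (6.56) and for *Cox7a2l* (11.05), and low for *C6* (10.37). Replicate 2 was low for *Bckdha* (8.81), *Cpt1b* (8.02) and *Epm2a* (7.23) and high for *Srebf2* (9.80). Replicate 3 was high for *Csf1r* (11.03), *RT1-Da* (8.95), *Insig1* (11.98), *Egln3* (7.79), *Epo* (6.80) and *Pex11a* (8.83) and low for *Ces1f* (8.92). Replicate 4 was high for *Tfrc* (12.02).

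The change from P1 to P4 differed between liver and muscle for the 10 genes tested. The difference, liver minus muscle, was 2.29 for *Ces2e*, 2.07 for *Ces1f*, 1.99 for *Cyp2c6v1*, 1.94 for *Ces1c*, 1.75 for *Spink1l*, −3.79 for *Hdc*, −3.32 for *Cyp7a1*, −2.66 for *Cyp8b1*, −2.38 for *Rbp2* and −2.12 for *Dlk1*. These genes were chosen for the size of their change in liver.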

How the results depend on the processing

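With all arrays 609 probe sets rose and 748 fell. In the fit of the 8 P1 and P4 arrays alone 186 rose and 227 fell, 29 of the latter at least 2-fold against 45. With P1 replicate 1 left out of that fit as well, an alternative chosen after the data were seen, 400 rose and 607 fell. At an unadjusted p of at most 0.05, 1715 rose and 1757 fell. Among the brighter probe sets only, 10 rose at least 2-fold against 24 in all. Leaving out 1 array at a time gave 425 to 857 probe sets that rose and 486 to 1171 that fell, the last being the count without P1 replicate 1. The cause of these differences was not tested. Array weights, the trended and robust prior, renormalisation, centring, averaged probe sets and all 24 liver arrays kept both counts within 1.5 times. The comparison with muscle was repeated only with single P1 or P4 liver arrays left out, and all 10 genes passed in each of those fits.

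Of the 197 genes named, 135 passed the test, none of these changed sign in an alternative, and 76 passed in every alternative in which they were tested. In the fit of the 8 arrays 56 lost the call. Of the 135, 34 lost it when a single array was left out: 7 without P1 replicate 1, 14 without P1 replicate 2, 11 without P1 replicate 3, 16 without P1 replicate 4, and 14, 23, 21 and 19 without P4 replicates 1 to 4. *Bmal1*, *C9*, *Cdk1*, *Cyp2a3*, *Idi1*, *Mthfd2*, *Pdss2* and *Tdo2* lost it in 6 or 7 of these 8 fits, and *Angptl8*, *C1s*, *Cpa3*, *Cyp1a2*, *Cyp2e1*, *Hspa9*, *Irs1*, *Prtn3*, *Rag1* and *Scd* in 4 or 5. The adjusted p of a lost call was between 0.0501 and 0.155 in these fits. Another 16 genes passed without P1 replicate 1.

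The 13 named genes that changed sign had not passed. With 1 array left out at a time their differences ran from −0.02 to 0.18 (*Alas2*), −0.04 to 0.04 (*Canx*), −0.76 to 0.63 (*Cldn2*), −0.12 to 0.05 (*Coq5*), −0.03 to 0.10 (*Epor*), −0.05 to 0.09 (*Fbp1*), −0.71 to 0.06 (*Fgf21*), −0.02 to 0.02 (*H19*), −1.06 to 0.33 (*Inhbe*), −0.28 to 0.72 (*Insig1*), −0.18 to 0.23 (*Ppbp*), −0.80 to 0.21 (*Scd2*) and −0.01 to 0.28 (*Srebf2*). With array weights *Cldn2* was −0.47 and *Fbp1* −0.01, with renormalisation *Canx* was −0.00, with averaged probe sets *H19* was −0.04, and in the 8-array fit without P1 replicate 1 *Cldn2* was −0.76, *Coq5* 0.05, *Fbp1* −0.05 and *Scd2* 0.21.

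With the replicate number as a block 564 probe sets rose and 731 fell, and 5 named genes lost the call, *Angptl8*, *C9*, *Cyp2a3*, *Mthfd2* and *Tdo2*. The labels give the ages shared replicate numbers. The deviations of same-numbered P1 and P4 arrays correlated at −0.008, 0.055, 0.078 and 0.097, and those of other P1 and P4 pairs at −0.107 to 0.089. Such values cannot show whether same-numbered arrays share a litter or a batch, and no source states it. The number of arrays, 4 an age, limits the precision of every difference.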

Other observations

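Of 31 hypoxia response genes 1 rose and 4 fell, and 3 and 5 without P1 replicate 1. *Hif3a*, an inhibitory member of the family of oxygen-regulated transcription factors, had means of 10.88 at F22, 9.15 at P1 and 8.04 at P4 (−1.11 ± 0.26 SE, limma's adjusted p = 0.0108, and −0.67 without P1 replicate 1). *Egln3*, an oxygen-sensing prolyl hydroxylase, fell by 0.91 ± 0.20 SE (adjusted p = 0.0083). *Epo*, the hormone of red cell formation, was the member that rose, from a mean of 5.97 to 6.44 (0.47 ± 0.11 SE, adjusted p = 0.0143), levels below the median of all probe sets. Of 33 immediate early genes 0 rose and 4 fell, among them *Gadd45b*, a stress-induced regulator of growth (−0.96 ± 0.25 SE, adjusted p = 0.0216, and −0.57 without P1 replicate 1), and *Klf10* (−0.52 ± 0.14 SE), and with no correction for the number of tests 6 rose and 6 fell. The count of immediate early genes that fell was 2 without P4 replicate 2 and 1 without P4 replicate 4. Without P1 replicate 1, 2 rose and 4 fell, and that array was above the other P1 arrays in 23 of the 33. Of 30 genes under ATF4 and amino acid stress 1 rose and 3 fell, and 3 and 5 without P1 replicate 1. *Nupr1*, a stress-induced nuclear protein, fell by 0.60 ± 0.15 SE, and *Mthfd2*, a mitochondrial folate enzyme, rose by 0.41 ± 0.13 SE (adjusted p = 0.0495).

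Of 32 acute phase genes 3 rose and 2 fell, beside 3.96% and 4.78% of all genes. Without P1 replicate 1, 7 rose, beside 5.54% of all genes. *A2m*, the protease inhibitor that foetal rat liver makes in large amounts, had means of 13.37 at P1 and 12.92 at P4 (−0.44 ± 0.08 SE, adjusted p = 0.00116), against 7.19 in the adult. *Serpina3m*, a protease inhibitor of plasma, rose from a mean of 5.69 to 6.78 (1.09 ± 0.28 SE, adjusted p = 0.0194), with 11.73 in the adult. Of 38 organic ion and ABC transporter genes 4 rose and 0 fell, among them *Abca8a* (0.75 ± 0.16 SE) and *Slco2b1* (0.54 ± 0.13 SE), and with no correction 11 rose and 5 fell. Without P1 replicate 1, 4 of the transporter genes rose and 4 fell.

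In hind limb muscle *Alox15* rose by 3.57 ± 0.13 SE from P1 to P4, more than in liver (liver minus muscle −1.83 ± 0.23 SE, adjusted p = 1.96e-07). *Hbe1* fell by 2.53 ± 0.46 SE in muscle and by 1.71 in liver, and the difference between the tissues did not pass (0.83 ± 0.62 SE, adjusted p = 0.376). Both genes were picked for this comparison after their values were seen.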
